A study of Mus musculus with 15 samples.

Results

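The expression of 10 genes of innate immune recognition was examined in whole brain of young and old mice that were fed ad libitum (AL) or subjected to every-other-day feeding (EOD). They were 7 Toll-like receptors (Tlr1, Tlr2, Tlr3, Tlr4, Tlr7, Tlr9 and Tlr13), the co-receptors Cd14 and Ly86, and the adaptor Myd88. These genes were chosen by name from the 43629 genes listed, with earlier results of these data known. All mice were male, wildtype and of the C57BL/6J strain, and RNA-seq was carried out on 1 library of total RNA per brain. The young AL (4 mice) and young EOD (3 mice) groups were 3 months old and the old AL (4 mice) and old EOD (4 mice) groups 24 months old by the labels, which call the EOD regimen intermittent fasting. EOD alternated a day of full fasting with a day of free access to food and began in early adulthood, so that young mice had been on it only briefly and old mice for most of their lives. The comparisons ask whether the expression of these genes differed with age, with diet, and in the response to age between the diets.

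Toll-like receptors are membrane proteins that bind conserved microbial structures or nucleic acids. Tlr1, Tlr2 and Tlr4 act at the cell surface, where they recognize bacterial lipoproteins and lipopolysaccharide, whereas Tlr3, Tlr7, Tlr9 and Tlr13 act in endosomes and recognize double-stranded RNA, single-stranded RNA, unmethylated CpG DNA and bacterial ribosomal RNA, respectively. Most of them signal through the adaptor protein Myd88 to NF-kappaB, while Tlr3 signals through Ticam1. Cd14 passes lipopolysaccharide and other ligands to the receptors, and Ly86 (also called MD-1) forms a complex with the receptor-like protein Cd180. In the brain these genes are best known from microglia, the resident macrophages, although astrocytes and other cells express some of them too.

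Total counts ranged from 5198748 to 13610729 per mouse (median 9886766), and 15864 genes had enough counts to be tested. The library of young AL replicate 3 stood apart: it had the highest total but the fewest genes detected (17280, against 19054 to 20880 in the other 14 mice), and its median correlation with the other libraries was 0.9573, against 0.9801 to 0.9873. Results that rest on it are given with and without it. The tissue matched its label, since the summed counts of 5 markers each, scaled to library size (CPM), ranged from 6560 to 8530 for neurons, 4780 to 5510 for astrocytes and 5030 to 6580 for oligodendrocytes, and 10 microglia markers summed to 363 to 503 CPM. Markers of the neighboring pituitary gland (Gh, Prl, Pomc, Cga) summed to 1030 CPM in old AL replicate 4 and to at most 18.2 CPM in every other mouse, and the neutrophil genes S100a8 and S100a9 were highest in old AL replicate 3 (5.86 and 9.27 CPM).

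Promoter sequence is shown for Tlr2, Tlr13 and Ly86, for which an age difference was found, and for Tlr9, for which none was. The sequences come from RefSeq on GRCm38.p6, the build of the counts, and each runs 5′ to 3′ on the strand of the gene. Each ends just before the first transcript start of the gene in the GENCODE annotation. For Ly86 this start lies upstream of the one in the annotation of the counts (37345345), and for Tlr2, Tlr13 and Tlr9 the starts are the same. All 4 stretches are thus upstream of the annotated transcripts. Of the 10 genes, 7 had an entry of 300 bases in the RefSeq promoter table. Capitals mark matches on either strand to GAGGAA, the core bound by the myeloid factor PU.1, or to a form of the NF-kappaB element, read as GGGA and CC with any 4 bases between them.
Tlr2, chr3:83841768-83841858, minus strand: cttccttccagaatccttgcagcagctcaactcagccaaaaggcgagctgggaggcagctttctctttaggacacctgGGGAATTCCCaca
Tlr13, chrX:106143025-106143203, plus strand: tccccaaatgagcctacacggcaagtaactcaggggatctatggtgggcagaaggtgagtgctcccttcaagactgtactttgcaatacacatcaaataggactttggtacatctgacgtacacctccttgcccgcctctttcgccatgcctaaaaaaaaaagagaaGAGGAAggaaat
Ly86, chr13:37345095-37345207, plus strand: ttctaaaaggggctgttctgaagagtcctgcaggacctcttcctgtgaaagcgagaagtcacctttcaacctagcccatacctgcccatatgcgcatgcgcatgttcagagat
Tlr9, chr9:106222348-106222597, plus strand: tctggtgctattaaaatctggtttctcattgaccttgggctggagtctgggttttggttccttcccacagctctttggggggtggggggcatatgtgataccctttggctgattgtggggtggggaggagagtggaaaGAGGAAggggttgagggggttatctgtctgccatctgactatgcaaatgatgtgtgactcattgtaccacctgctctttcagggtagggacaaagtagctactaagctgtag

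The capitals in Tlr2 are a match to the NF-kappaB element, which occurred in 5.56% of all 32851 RefSeq promoter entries cut to the same 91 bases. The capitals in Tlr13 and Tlr9 are matches to the PU.1 core, which occurred in 17.1% of all entries cut to 179 bases and in 23.3% of those cut to 250 bases. Over the whole 300 bases, the PU.1 core occurred for 3 of the 7 genes with an entry (Tlr1, Tlr9 and Tlr13) and in 28.3% of all entries, and the NF-kappaB element for 2 of the 7 (Tlr2 and Tlr3) and in 20.7%. No letters of either motif were found in the Ly86 stretch. A match is a description of the letters and does not show binding.

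Per length, Ly86 was the most abundant of the 10 genes in whole brain, with a median of 13.5 reads per kilobase of exon, scaled to library size (RPKM) over the 15 mice. Tlr3 followed at 3.98 RPKM, and Myd88 (1.73), Tlr7 (1.41), Cd14 (1.28) and Tlr13 (1.06) came next. Tlr2 (0.827 RPKM), Tlr9 (0.502), Tlr4 (0.477) and Tlr1 (0.148) had the lowest medians. The ranges of single mice overlapped between neighbors in this order, except that every mouse had more Ly86 than Tlr3 and that Tlr3 exceeded Myd88 in every mouse. Ly86 alone held 50.8% of the summed RPKM of the 10 genes in young AL, 40.1% in young EOD, 54.7% in old AL and 52.9% in old EOD mice.

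**Figure D1:**
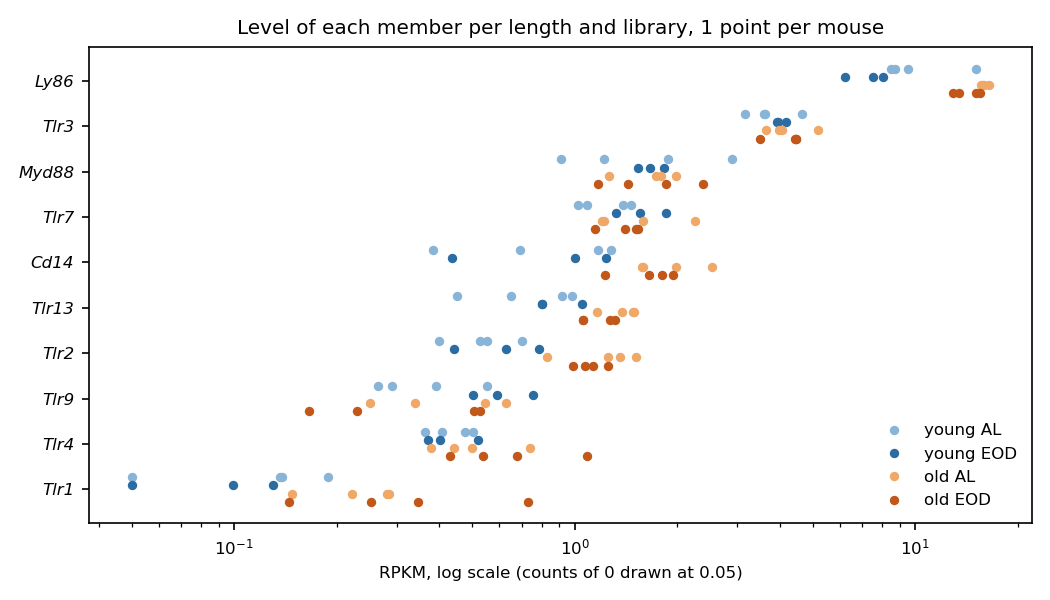
RPKM (reads per kilobase of exon, scaled to library size, log scale) of the 10 genes, one point per mouse, colored by group and ordered by the median over the 15 mice. Ly86 stands above Tlr3 in every mouse, and the medians fall from 13.5 RPKM for Ly86 to 0.148 RPKM for Tlr1.

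Tlr1, the partner of Tlr2 for triacylated lipoproteins, was too low to judge. It had 0 to 17 counts per mouse (median 4) and did not pass the filter on low counts. It had no counts in young AL replicate 3 and young EOD replicate 1, where a count of 0 still allows 0.227 and 0.308 CPM, and its highest value was 1.93 CPM in old EOD replicate 2. Fitted without the filter, its age difference was 1.67 on the log2 scale (SE 0.592), with an adjusted p of 0.152 in edgeR and 0.181 in DESeq2. The other 9 genes were tested. Among them Tlr9 (6 to 26 counts), Cd14 (4 to 37), Tlr2 (10 to 45) and Tlr4 (13 to 53) had few counts, so that counting error was a large share of their spread: the 6 counts of Tlr9 in old EOD replicate 4 gave 0.577 CPM with an exact 95% interval for counting error of 0.212 to 1.26.

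Age was accompanied by higher expression of a subset of the 9 tested genes. Averaged over the diets, Tlr2, Tlr13, Cd14 and Ly86 rose with age (edgeR quasi-likelihood test, Benjamini-Hochberg FDR under 0.1 over all 15864 genes), and Tlr3, Tlr4, Tlr7, Tlr9 and Myd88 did not pass the test. None fell. The share of all tested genes that rose in this comparison was 1.62% (1.91% without young AL replicate 3, where the same 4 genes were called), and the median log2 difference was 0.448 for the 9 genes and -0.005 for all genes. In AL mice alone 1 of the 9 rose (Tlr2; 0.946% of all genes rose), or 3 without young AL replicate 3 (Tlr2, Tlr13 and Ly86; 0.931% of all genes rose). In EOD mice alone 1 of the 9 rose with either set of mice (Ly86; 0.258% and 0.421% of all genes rose).

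**Figure D2:**
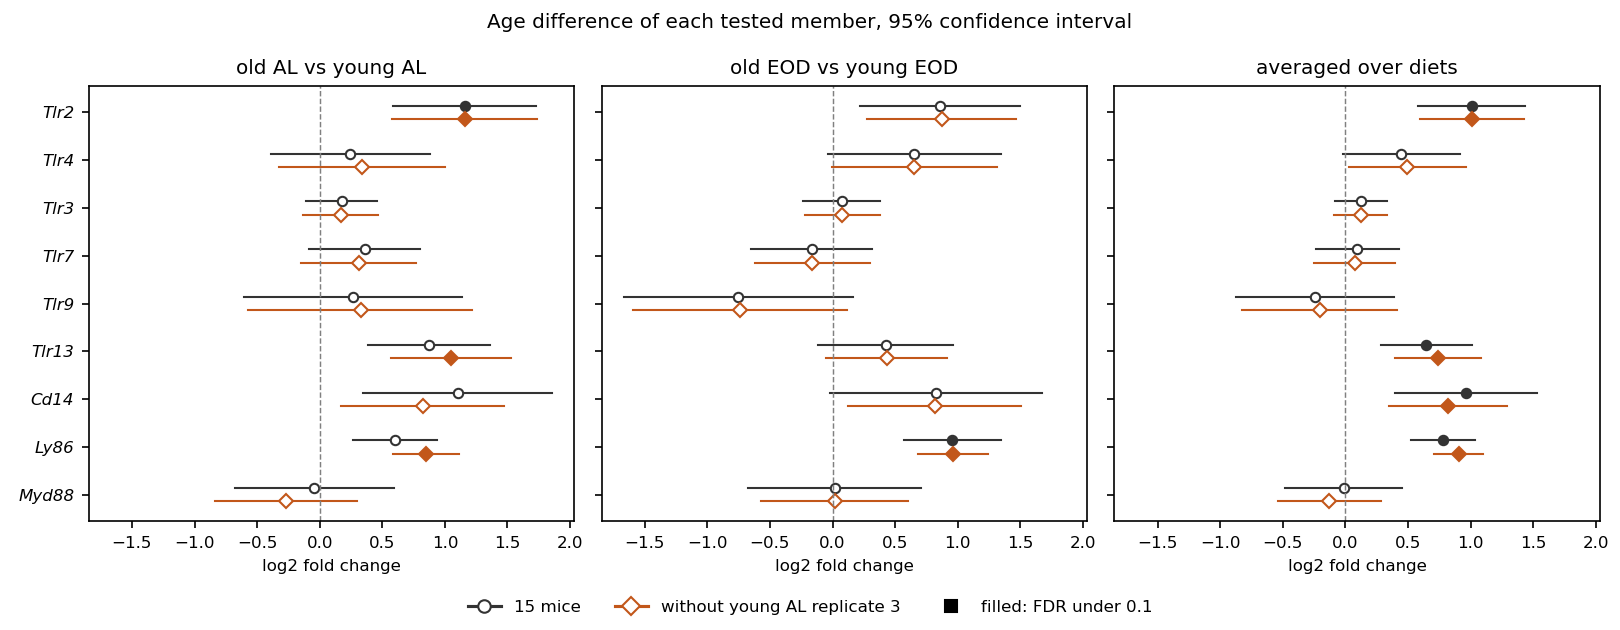
Age difference (log2 fold change, old against young, with its 95% confidence interval) of the 9 tested genes under AL, under EOD and averaged over both diets, from the fit of 15 mice and from the fit without young AL replicate 3. Filled symbols mark an FDR under 0.1; averaged over the diets, Tlr2, Tlr13, Cd14 and Ly86 are filled in both fits.

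Among the surface receptors, Tlr2, which recognizes bacterial lipoproteins together with Tlr1 or Tlr6, rose with age. Its gene (ENSMUSG00000027995) lies on the minus strand at chr3:83836272-83841767 of GRCm38. It measured 1.21, 2.11, 1.66 and 1.59 CPM in the young AL mice and 1.33, 1.89 and 2.37 CPM in the young EOD mice. The old AL mice had 4.10, 2.49, 4.54 and 3.78 CPM and the old EOD mice 3.77, 3.41, 3.22 and 2.98 CPM. Every old mouse was above every young mouse, a separation upwards that 0.750% of all tested genes showed. The means were 1.64 ± 0.370 CPM (SD, n = 4) in young AL, 1.86 ± 0.516 (n = 3) in young EOD, 3.35 ± 0.332 (n = 4) in old EOD and 3.73 ± 0.881 (n = 4) in old AL mice, and within each age the diets overlapped.

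Averaged over the diets, Tlr2 was 2.01-fold higher in old mice (log2 1.01, SE 0.206, edgeR FDR 0.0118). It was 2.23-fold higher in old than in young AL mice (log2 1.16, SE 0.274, edgeR FDR 0.0494), and the difference in EOD mice was 0.86 on the log2 scale (95% interval 0.221 to 1.5, edgeR FDR 0.665). The AL call was lost when young AL replicate 1 or old AL replicates 1, 3 or 4 were left out (edgeR FDR 0.122, 0.147, 0.188 and 0.131), while the log2 difference stayed between 1.06 and 1.15 there. The averaged call held whichever mouse was left out (log2 0.899 to 1.12). Within sequencing lanes 1, 2 and 3, as named in the file headers, the AL difference was 1.25, 0.94 and 1.15 on the log2 scale.

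Tlr4, the receptor for lipopolysaccharide, ranged from 2.02 to 2.80 CPM in young AL, 2.05 to 2.89 in young EOD, 2.10 to 4.10 in old AL and 2.39 to 6.03 in old EOD mice, so that all groups overlapped. Its log2 age difference averaged over the diets was 0.45, with a 95% interval of -0.022 to 0.918 (edgeR FDR 0.45). The highest value, in old EOD replicate 2, came from the same mouse as the highest Tlr1 value.

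Among the endosomal receptors, Tlr13, which recognizes bacterial 23S ribosomal RNA and has no human counterpart, rose with age. Its gene (ENSMUSG00000033777) lies on the plus strand at chrX:106143204-106160493. The young AL mice had 2.65, 3.76, 4 and 1.84 CPM and the young EOD mice 3.29, 4.30 and 3.29 CPM. The old AL mice had 6.09, 6.04, 4.73 and 5.63 CPM and the old EOD mice 5.36, 4.32, 4.33 and 5.19 CPM. Old mice lay above young mice throughout, as for 0.750% of all tested genes, although the highest young EOD mouse (4.30 CPM) and the lowest old EOD mouse (4.32 CPM) nearly met. The order of the means was young AL (3.06 ± 1.0 CPM), young EOD (3.62 ± 0.585), old EOD (4.80 ± 0.554) and old AL (5.62 ± 0.630), and the diets overlapped within each age.

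Tlr13 was 1.57-fold higher in old mice averaged over the diets (log2 0.65, SE 0.174, edgeR FDR 0.0691). This call was lost when any one of young AL replicate 1, young EOD replicates 1 and 3, old AL replicates 1, 2 and 4 or old EOD replicates 1 and 4 was left out (edgeR FDR 0.106 to 0.203). In AL mice the log2 difference was 0.87 (SE 0.233, edgeR FDR 0.104), and without young AL replicate 3 it was 1.05 (SE 0.232, edgeR FDR 0.0308). Within lanes 1, 2 and 3 the AL difference was 0.90, 0.40 and 1.51. In EOD mice it was 0.42 on the log2 scale (95% interval -0.113 to 0.961).

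The other 3 endosomal receptors overlapped between young and old mice. Tlr3, the receptor for double-stranded RNA and the best counted of the Toll-like receptors (85 to 233 counts), measured 13.9 to 20.5 CPM in young AL, 17.2 to 18.4 in young EOD, 16.1 to 22.8 in old AL and 15.4 to 19.7 in old EOD mice. Its averaged log2 age difference was 0.13, with a 95% interval of -0.084 to 0.333, the narrowest among the 9 genes with 15 mice. This interval lay below the estimates for Tlr2, Tlr13, Cd14 and Ly86 but overlapped the interval of Tlr13 (0.287 to 1.01). Differences between genes were not tested. Tlr7, a receptor for single-stranded RNA, ranged from 4.18 to 5.95 CPM in young AL, 5.39 to 7.57 in young EOD, 4.92 to 9.20 in old AL and 4.69 to 6.26 in old EOD mice, with an averaged age difference of 0.10 (95% interval -0.232 to 0.425). Tlr9, the receptor for CpG DNA, ranged from 0.920 to 1.93 CPM in young AL, 1.75 to 2.63 in young EOD, 0.870 to 2.19 in old AL and 0.577 to 1.84 in old EOD mice. Its averaged age difference was -0.24 (95% interval -0.876 to 0.391), an interval wide enough to hold changes in either direction.

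**Figure D3:**
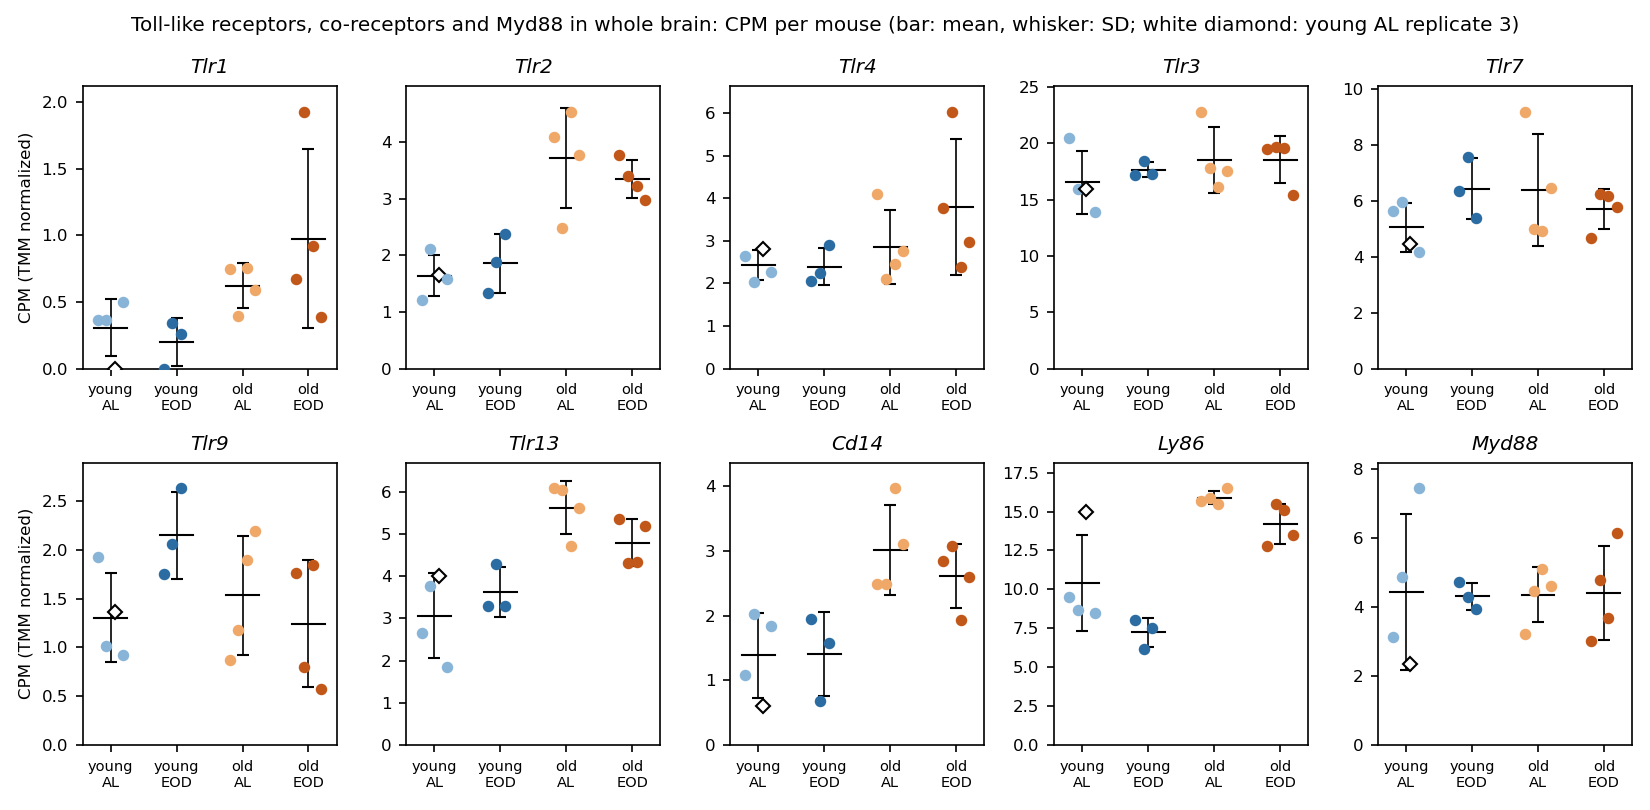
CPM (TMM normalized) of the 10 genes in each mouse by group, with the group mean (bar) and SD (whisker); the white diamond is young AL replicate 3. Old mice lie above young mice for Tlr2 and Tlr13 throughout and for Ly86 except young AL replicate 3 (15 CPM), and the groups overlap for Tlr3, Tlr4, Tlr7, Tlr9 and Myd88.

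Of the co-receptors, Cd14, a lipid-anchored protein that hands lipopolysaccharide to Tlr4, rose with age. Its gene is ENSMUSG00000051439. It measured 1.08, 2.02, 0.604 and 1.84 CPM in young AL and 1.95, 0.688 and 1.58 CPM in young EOD mice, with only 8 counts in young AL replicate 3 and 4 counts in young EOD replicate 2. Old AL mice had 2.49, 2.49, 3.97 and 3.11 CPM and old EOD mice 2.85, 3.07, 1.93 and 2.60 CPM. All old mice but old EOD replicate 3 were above every young mouse. The order of the means was young AL (1.39 ± 0.660 CPM), young EOD (1.41 ± 0.649), old EOD (2.61 ± 0.493) and old AL (3.02 ± 0.702), and the diets overlapped within each age.

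Cd14 was 1.95-fold higher in old mice averaged over the diets (log2 0.96, SE 0.272, edgeR FDR 0.0902), and without young AL replicate 3 the log2 difference was 0.82 (SE 0.228, edgeR FDR 0.0796). This was the least stable of the 4 calls: it held only when young AL replicate 2, 3 or 4 or old EOD replicate 3 was the mouse left out, and it was lost when any of the other 11 was (edgeR FDR 0.11 to 0.251) and when sequencing lane was added as a covariate. The log2 difference was 1.1 in AL mice (95% interval 0.348 to 1.86, edgeR FDR 0.254) and 0.83 in EOD mice (95% interval -0.017 to 1.67, edgeR FDR 0.878). Within lanes 1, 2 and 3 the AL difference was 0.67, 2.04 and 0.69, and young AL replicate 3 is the young AL mouse of lane 2.

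Ly86, the secreted partner of Cd180, had the smallest FDR of the 9 tested genes averaged over the diets. Its gene (ENSMUSG00000021423) lies on the plus strand at chr13:37345345-37419036. Young AL mice had 9.52, 8.70, 15 and 8.45 CPM and young EOD mice 8.01, 6.19 and 7.49 CPM. Old AL mice had 15.7, 15.9, 15.5 and 16.5 CPM and old EOD mice 12.8, 15.5, 15.1 and 13.5 CPM. The value of 15 CPM belonged to young AL replicate 3, which had 199 counts. Without this mouse every old mouse was above every young mouse, as for 0.901% of all genes. Every young EOD mouse was below every young AL mouse, with or without it. The means were 7.23 ± 0.937 CPM in young EOD, 10.4 ± 3.10 in young AL (8.89 ± 0.559 without young AL replicate 3, n = 3), 14.2 ± 1.28 in old EOD and 15.9 ± 0.422 in old AL mice. The highest old EOD and the lowest old AL mouse both rounded to 15.5 CPM, with the old EOD mouse just below.

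Averaged over the diets, Ly86 was 1.72-fold higher in old mice (log2 0.78, SE 0.124, edgeR FDR 0.000892), and without young AL replicate 3 1.87-fold (log2 0.90, SE 0.0926, edgeR FDR 4.21e-06). This call held whichever mouse was left out. In AL mice the log2 difference was 0.60 (SE 0.161, edgeR FDR 0.108), and leaving out young AL replicate 3 moved it to 0.85 (SE 0.127, edgeR FDR 0.000763). Within lanes 1, 2 and 3 the AL difference was 0.77, 0.06 and 0.95, and the 0.06 rests on young AL replicate 3 as the only young AL mouse of lane 2.

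In EOD mice Ly86 was 1.94-fold higher with age (log2 0.96, SE 0.188, edgeR FDR 0.0275). Leaving out young EOD replicates 1, 2 or 3 or old EOD replicate 2 raised the FDR to 0.114, 0.212, 0.143 and 0.112, with log2 differences of 0.869 to 1.04. Within lanes 1 and 2 the EOD difference was 0.66 and 1.16, and lane 3 held no young EOD mouse.

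Myd88, the adaptor shared by most of these receptors, showed no age difference that passed the test. It ranged from 2.34 to 7.45 CPM in young AL, 3.94 to 4.72 in young EOD, 3.23 to 5.11 in old AL and 3.02 to 6.16 in old EOD mice, and the group means lay between 4.32 and 4.44 CPM. The averaged log2 age difference was -0.01, with a 95% interval of -0.481 to 0.455. The mice with the highest Myd88, young AL replicate 4 and old EOD replicate 4, were also those with the lowest Tlr3 (13.9 and 15.4 CPM), an observation made after the values were seen.

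No diet difference and no interaction of age and diet passed the test for any of the 9 genes. The same was true of all 15864 genes: edgeR called 0% for diet in the young, in the old, over both ages or for the interaction. An unadjusted p under 0.05 was reached by 657, 409, 715 and 362 genes, respectively. DESeq2 called 1 gene in young mice, none of the 9, and 0 in the other 3 comparisons. The diet difference with the smallest p among the 9 genes in young mice was that of Ly86, -0.52 on the log2 scale (95% interval -0.917 to -0.128, unadjusted p = 0.0119, edgeR FDR 0.996). All 3 young EOD mice were below all 4 young AL mice, which 2.05% of all genes showed. All 4 old EOD mice were likewise below all 4 old AL mice, by less than the rounding at 15.5 CPM, which 1.36% of all genes showed. Young AL replicate 3 decided the size of the difference in young mice, which without it was -0.28 (95% interval -0.583 to 0.032).

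The intervals bound what diet differences these data leave room for. In old mice they were -0.683 to 0.392 for Tlr2, -0.284 to 0.277 for Tlr3, -0.70 to 0.236 for Tlr13, -0.907 to 0.518 for Cd14 and -0.495 to 0.166 for Ly86 on the log2 scale. In young mice they were -0.519 to 0.823 for Tlr2, -0.333 to 0.768 for Tlr13 and -0.799 to 0.96 for Cd14. A 2-fold diet difference (1 on the log2 scale) thus lay outside the intervals of these genes, narrowly so for Cd14. Tlr9 was open to more in both ages (-0.183 to 1.64 in young and -1.16 to 0.585 in old mice), and the interval of Tlr4 reached 2-fold in old mice (-0.232 to 1.001). The 4 genes that rose with age had smaller means in old EOD than in old AL mice, by log2 differences of -0.15 for Tlr2, -0.23 for Tlr13, -0.19 for Cd14 and -0.17 for Ly86, none of which passed the test. A negative sign was not particular to these 4, since Tlr7 (-0.18) and Tlr9 (-0.29) had it too. Only 2 of the 9 genes had a positive difference in old mice, against 8060 of all 15864 genes. The interaction was -0.30 for Tlr2 (95% interval -1.16 to 0.563), -0.45 for Tlr13 (-1.17 to 0.274), -0.28 for Cd14 (-1.41 to 0.86) and 0.36 for Ly86 (-0.156 to 0.872), so the age difference was not shown to differ between the diets.

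**Figure D4:**
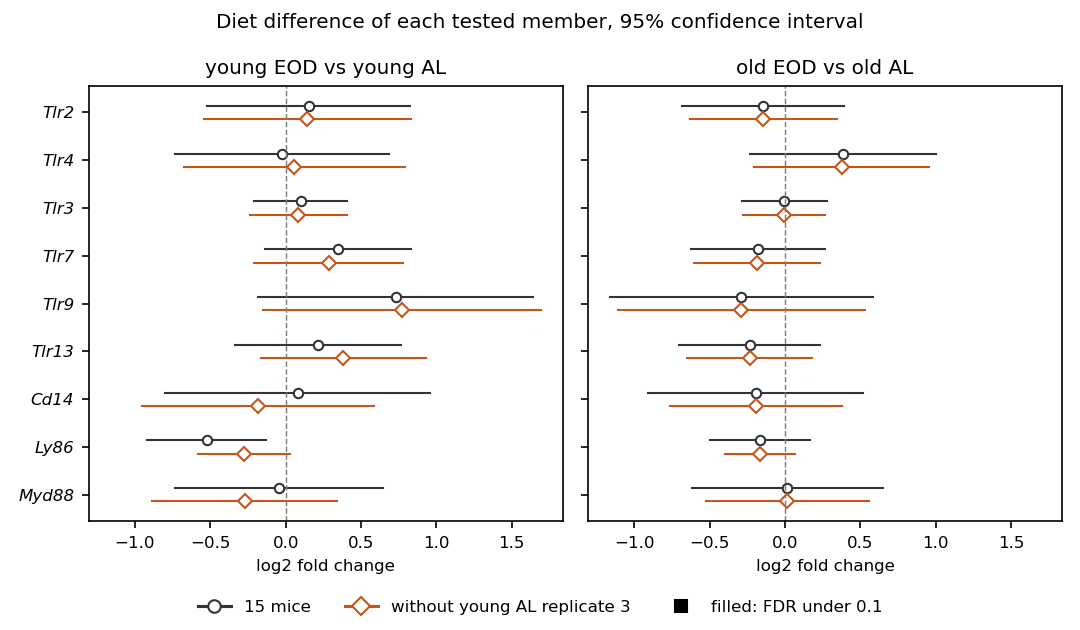
Diet difference (log2 fold change, EOD against AL, with its 95% confidence interval) of the 9 tested genes in young and in old mice, from the fit of 15 mice and from the fit without young AL replicate 3. No symbol is filled, since no FDR was under 0.1, and in young mice the interval of Ly86 lies below 0 with 15 mice and crosses 0 without young AL replicate 3.

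Since these genes are expressed by macrophages, the levels of cell type markers are given beside them. In bulk tissue, a change in the number of cells of a type and a change in RNA per cell cannot be told apart. The 10 microglia markers summed to 383 to 408 CPM in young AL, 363 to 398 in young EOD, 452 to 500 in old AL and 446 to 503 in old EOD mice, so that old mice were above young mice throughout. All 10 had a positive averaged log2 age difference (median 0.24) and 4 rose, among them Olfml3 (0.32), Cx3cr1 (0.23) and Csf1r (0.20), and none had 0 counts in any mouse. Tlr2, Tlr13, Cd14 and Ly86 each had a larger averaged difference (0.65 to 1.01) than the median of these markers, and the part of microglia number in their rise was not tested.

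Set against the microglia marker sum, Tlr2 amounted to 3.09 to 5.19 CPM per 1000 CPM of the markers in young AL, 3.68 to 5.97 in young EOD, 5.37 to 10 in old AL and 6.48 to 7.61 in old EOD mice. Ly86 amounted to 21.4 to 36.8 (21.4 to 24.4 without young AL replicate 3), 15.6 to 22.1, 33.0 to 34.3 and 25.9 to 30.8 in the same order. On this scale Tlr2 overlapped between young EOD and old AL mice, and Ly86 of young AL replicate 3 lay above every old mouse. The values for Tlr13 were 4.80 to 9.80, 8.29 to 10.8, 10.5 to 13.3 and 8.60 to 11.6, with overlap of the ages in EOD mice. Those for Cd14 were 1.48 to 4.96, 1.73 to 5.37, 5.37 to 8.78 and 3.89 to 6.11, again with overlap in EOD mice. The share of all genes that separate the ages on this scale was not counted, and a rise beyond microglia number was not tested.

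Markers of other immune cells were few and low. The 6 markers of perivascular and meningeal macrophages summed to 18.3 to 25.7 CPM in young AL, 17.9 to 22.2 in young EOD, 10.8 to 20.9 in old AL and 13.7 to 15.2 in old EOD mice, and all 6 had a negative averaged age difference (log2 -0.64 to -0.09) that did not pass the test. The 6 lymphocyte markers summed to at most 1.24 CPM in any mouse, and between 1 and 6 of them were at 0. The monocyte and neutrophil markers summed to 0 to 1.59 CPM in young mice and 0.746 to 3.78 CPM in old mice other than old AL replicate 3, which had 16.3 CPM. S100a9 had an edgeR FDR of 0.0735 averaged over the diets and of 0.125 without young AL replicate 3. Since all 6 markers together reached at most 1.59 CPM in young mice, S100a9 was near the floor there. Its FDR is therefore not taken as support for a rise. The 5 erythrocyte markers (log2 0.37 to 0.81) and the 4 choroid plexus markers (0.13 to 0.52) were all higher in old mice and none passed the test, and the part of these cells in the results was not tested. Without old AL replicate 3 the averaged differences of Tlr2 and Ly86 were still called, that of Tlr13 was too, and that of Cd14 was 0.90 with an edgeR FDR of 0.195.

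Other genes of Toll-like receptor signaling were taken from a list of 55, of which 42 were tested. With age, 3 of the 42 passed the test upwards averaged over the diets and none fell, against 1.62% and 0.681% of all genes. Among these 3, Ccl3 was too low to judge, as given below. The median log2 difference of the list was 0.10. Cathepsin S (Ctss), a lysosomal protease that can cleave endosomal receptors, rose 1.79-fold (log2 0.84, SE 0.0607, edgeR FDR 1.34e-08). It measured 69.0 to 80.6 CPM in young AL, 72.0 to 79.6 in young EOD, 120 to 153 in old AL and 117 to 131 in old EOD mice, and it rose in both diets. Unc93b1, the chaperone that carries the nucleic-acid-sensing receptors to endosomes, rose 1.35-fold averaged over the diets (log2 0.43, SE 0.114, edgeR FDR 0.0621), with 8.89 to 10 CPM in young AL, 6.26 to 7.39 in young EOD, 9.95 to 14.9 in old AL and 9.04 to 12.1 in old EOD mice. In AL mice alone its groups overlapped and it was not called (edgeR FDR 0.557).

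The chemokine gene Ccl3, a product of NF-kappaB activation, was the only one of 8 response genes that passed the filter on low counts. It had 0, 2, 0 and 0 counts in young AL and 1, 0 and 1 in young EOD mice, against 8, 8, 3 and 13 in old AL and 4, 4, 13 and 5 in old EOD mice. Ccl3 thus passed the filter only through old mice, and its median count was under 10, so it was too low to judge. Its edgeR FDR (0.0126 in AL mice and 0.0037 averaged) is therefore not taken as support for a rise. The gene no longer passed the filter when young AL replicate 3 was left out. Tnf and Il6 had a median of 0 counts, and Il1b of 3. The remaining 5 Toll-like receptors (Tlr5, Tlr6, Tlr8, Tlr11 and Tlr12) had medians of 0 to 6 counts and were not tested.

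No other group of the list held a gene that passed the test averaged over the diets. The 4 other co-receptors were all higher in old mice (log2 0.27 to 0.53 for Lbp, Cd36, Ly96 and Cd180), among them Cd180, the partner of Ly86, at 0.53 with an edgeR FDR of 0.362. The 15 kinases and ubiquitin ligases lay between -0.45 and 0.29, the 5 transcription factors between -0.04 and 0.55, the 5 inhibitors between -0.05 and 0.45 and the 4 tested adaptors between 0.003 and 0.47. Without young AL replicate 3 the calls of the list were Ctss, Unc93b1 and cathepsin B (Ctsb, log2 0.17, edgeR FDR 0.0762).

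**Figure D5:**
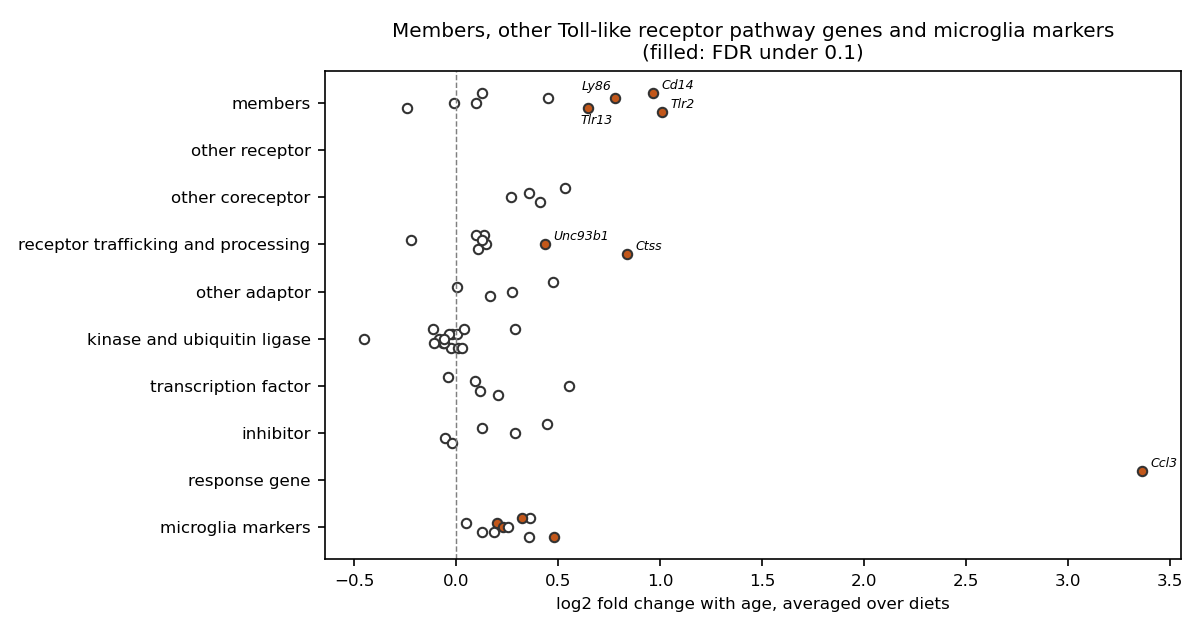
Age difference averaged over the diets (log2 fold change) of the 9 tested genes, of the 42 tested other genes of Toll-like receptor signaling by role, and of 10 microglia markers; filled points have an FDR under 0.1. Tlr2, Tlr13, Cd14, Ly86, Unc93b1, Ctss, Ccl3 and 4 microglia markers are filled, and kinases lie around 0. Ccl3 was too low to judge, since its fitted value rests on 0 to 2 counts per young mouse.

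The genes whose pattern over the mice was most like that of a given gene were sought for Tlr3, Tlr7 and Ly86, which had median counts of at least 50, among 14123 genes. They are given by Pearson's r of log2 CPM over 15 mice, as a description, since libraries share depth and group. For Ly86 they were Trem2 (0.944), Mpeg1 (0.919), Pcdhb14 (0.911), Gas5 (0.896) and C1qc (0.889). Trem2, Mpeg1 and C1qc are macrophage and microglia genes. Without young AL replicate 3 they ranked 7, 5, 11, 30 and 19, so that 1 of the 5 (Mpeg1) was still among the nearest 5. With the group means removed and without young AL replicate 3, r fell to 0.422, 0.429, 0.288, 0.50 and 0.285 for the same 5 genes, so that most of the likeness lay between the groups. For Tlr3 they were Trim59 (0.891), Rrm2b (0.859), Iigp1 (0.80), Prps2 (0.791) and Itgb8 (0.789), and for Tlr7 Thrb (0.868), Eif1a (0.82), Srsf3 (0.792), Gmps (0.791) and mt-Ti (0.788). With the group means removed in the same 14 mice, r was 0.781 to 0.918 for the genes near Tlr3 and 0.809 to 0.893 for those near Tlr7, so that these likenesses lay among mice of one group. In these 14 mice 2 of the 5 were still among the nearest 5 for Tlr3 (Trim59 and Rrm2b) and 2 of the 5 for Tlr7 (Thrb and Eif1a).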

How the data were processed

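RNA was extracted from whole brains, 1 library per mouse, and the libraries were sequenced as single-end reads. Reads were trimmed by the authors and mapped with STAR to GRCm38. Per the file headers, featureCounts 1.5.0-p1 then counted reads of mapping quality 5 or more, by strand, over the genes of Ensembl release 79. The deposited values are raw counts per gene. The processing after the counts was done here. Samples were grouped by the labels. For the old mice the paper gives a lower age at the start of its tests than the labels' 24 months. The replicate numbers in the labels were checked, and no pairing of mice across groups was seen in expression.

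Group differences come from the quasi-likelihood test of edgeR (version 4.0.16, under R 4.3.3) after filterByExpr and TMM scaling (Benjamini-Hochberg adjustment over all tested genes, FDR under 0.1), in one fit of the 4 group means of 15 mice and in one without young AL replicate 3. The script was tested on simulated data. CPM use TMM library sizes, and RPKM the exon length in the files. Exact 95% (Clopper-Pearson) intervals and the limit of 3 counts for a count of 0 cover counting error only. A gene was too low to judge when it failed the filter or its median count was under 10. No replicates differed by as little as sampling noise (chi-square per degree of freedom 3.02 to 17.1 over 21 pairs).

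The genes and lists were chosen with earlier results of these data known. All 10 genes are named, and of the pathway list those with an FDR under 0.1; exceptions are values given for comparison. The nearest genes were the 5 with the highest correlation among genes whose average log2 CPM was 1 or more. As alternatives the filter was dropped or raised to 10 counts per mouse, and size factors were taken by RLE. DESeq2 1.42.0 replaced edgeR, the FDR was set to 0.05, the replicate number entered as a block or the lane as a covariate, the fit was limited to the compared groups, and each mouse was left out in turn.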

Additional observations from a re-analysis of the deposited data

Results flagged for a closer look

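In groups of 4 mice, 3 of 33 sets of values held a mouse far from its group by Dixon's test at the 95% level (gap over range above 0.829), where chance gives about 1 in 20. Ly86 was 15 CPM in young AL replicate 3, against 8.45 to 9.52 CPM in the other young AL mice (gap over range 0.837). Tlr3 was 15.4 CPM in old EOD replicate 4, against 19.5 to 19.7 CPM in the other old EOD mice (0.953). The same mouse had the lowest sum of microglia markers of its group, 446 CPM against 495 to 503 CPM (0.86).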

How the results depend on the processing

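The number of the 9 genes called with age in AL mice (1 by the reported fit) was 3 with no filter on low counts, 2 with at least 10 counts in every mouse, 3 with DESeq2, 2 with the replicate block and 0 with only the groups compared, and 0 to 3 when a mouse was left out. In EOD mice it was 1 in every setting except that leaving out a mouse gave 0 to 1. Averaged over the diets (4) it was 2 at an FDR of 0.05 and 2 with the replicate block, where Tlr13 and Cd14 lost the call, and 2 to 4 when a mouse was left out. It was 3 with lane as a covariate, where Cd14 lost the call, and 3 with at least 10 counts in every mouse, where Cd14 was not tested. Tlr2 and Ly86 were among the averaged calls in all of these settings. Diet and interaction called none of the 9 in any setting. Of 1408 recomputed differences of single genes, 1291 kept direction and call, 33 lost and 8 gained a call, and 76 changed sign, none of them called; the causes were not tested. No pairing by replicate number was seen in expression, where same-numbered mice had correlations of -0.113 to 0.113 in their deviations from the group means. Whether the numbers mark a shared batch was not tested.

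Among the sign changes, with the replicate block Myd88 was 0.02 (age, AL), -0.217 (age, EOD), 0.244 (diet, young), 0.126 (diet, averaged) and -0.237 (interaction), and Tlr2 -0.009 (diet, averaged). With lane as a covariate Myd88 was -0.265 (age, EOD), 0.131 (diet, young), -0.103 (diet, old), 0.014 (diet, averaged) and -0.235 (interaction), Tlr3 0.026 (diet, old) and Tlr2 -0.002 (diet, averaged). With at least 10 counts in every mouse Tlr2 was -0.005 (diet, averaged). When a mouse was left out, the ranges that crossed 0 were, for age, -0.271 to 0.343 (Myd88, AL), -0.004 to 0.496 (Tlr9, AL), -0.191 to 0.168 (Myd88, EOD), -0.127 to 0.18 (Myd88, averaged) and -0.015 to 0.155 (Tlr7, averaged). For diet in young mice they were -0.186 to 0.089 (Tlr4), -0.272 to 0.336 (Myd88), -0.241 to 0.356 (Cd14) and -0.07 to 0.372 (Tlr2), and in old mice -0.058 to 0.11 (Tlr3), -0.282 to 0.043 (Tlr7) and -0.192 to 0.168 (Myd88). For diet averaged over the ages they were -0.108 to 0.113 (Tlr2), -0.105 to 0.075 (Tlr13), -0.217 to 0.081 (Cd14) and -0.128 to 0.174 (Myd88), and for the interaction -0.326 to 0.288 (Myd88), -0.55 to 0.047 (Cd14) and -0.227 to 0.01 (Tlr3).

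Over all genes, the number called with age in AL mice (173) was 444 with no filter, 86 with only the groups compared and 102 without old AL replicate 3. In EOD mice (46) it was 100 with no filter, 72 with DESeq2, 76 without young AL replicate 3, 19, 21 and 20 without young EOD replicates 1, 2 and 3, and 24 without old EOD replicate 2. Averaged (365) it was 653 with no filter, 229 at an FDR of 0.05, 237 with lane, and 222 and 216 without young EOD replicates 1 and 2. Dropping the filter gave 26 (young), 27 (old) and 65 (both ages) genes for diet and 26 for the interaction, and lane as a covariate gave 2 for diet in the old mice. Low counts limit Tlr1, Tlr9, Cd14, Tlr2 and Tlr4 most.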
